A study of Mus musculus with 10 samples.

Results

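The Iroquois (Irx) genes and the sine oculis homeobox genes (symbols such as Six3) encode transcription factors that lie in small clusters in the mouse genome, and 9 of them are described here in mouse embryonic stem cells (ESCs): Irx1, Irx2, Irx4, Irx3, Irx5, Irx6, Six2, Six3 and Six6. They are 9 of the 22367 protein-coding genes of GENCODE vM1 and were chosen by name as members of these clusters. A ChIP-seq site was assigned to a gene when it shared at least 1 base with the gene body extended by 5 kb on each side, called the window below. The windows of the 9 genes took in 28 of 8876 Suz12 sites, 24 of 5722 Suz12-depleted sites, 26 of 5242 Pcl3 sites and 5 of 678 H3K27me3-depleted sites.

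Polycomb repressive complex 2 (PRC2), of which Suz12 is a core subunit, places trimethylation on lysine 27 of histone H3 (H3K27me3), a mark of silenced developmental genes. Pcl3 is a Polycomb-like protein that associates with PRC2. In ESCs, PRC2 is typically found over CpG-rich promoters of genes for transcription factors of later development. Irx genes act in the patterning of the neural tube, heart, limb and retina, and sine oculis genes in the eye, forebrain and kidney.

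The study compared ESCs with and without knockdown of Pcl3 by ChIP-seq, the sequencing of DNA pulled down with an antibody, in 10 libraries. Suz12-TAP (FlagM2 antibody) and H3K27me3 were profiled in Suz12 Suz12TAP/+ cells derived from the BayGenomics gene trap line XG122, with 1 library each from cells expressing scramble shRNA and 1 each from cells expressing Pcl3 shRNA. Each of these populations has 1 input DNA library. The input of the knockdown population is titled Pcl3-shRNA, while its knockdown label reads Pcl3-shRNA6. Pcl3 was profiled with FlagM2 in E14 ESCs that carried Pcl3-TAP together with Pcl3-shRNA6 or Pcl3-shRNA7, in 1 ChIP and 1 input library for each shRNA, and the tagged Pcl3 is not a target of these shRNAs. All Suz12 and H3K27me3 values thus came from 1 heterozygous tagged line, and Pcl3 values from another line with an introduced, tagged Pcl3. No condition has a replicate of its own in the lists: the authors deposited 1 list of sites per comparison, each site with 1 p-value. No reads per site are given, so the depth behind a site is unknown and fold changes cannot be given. The p-value of a site, from the Skellam distribution of the difference between read counts of paired libraries, is given here as the strength of that site (Skellam p). It compares libraries and is no test over cultures.

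Each Suz12-depleted site repeats the position and p-value of a Suz12 binding site, so it shows that a site was called as reduced by Pcl3 shRNA but not by how much. P-values written as 0 were set to the largest −log10 p-value in their list, 307.197 for Suz12 and 307.247 for Pcl3. The identity of the cells was not measurable from expression here. Of 7 ESC marker genes (Pou5f1, Nanog, Zfp42, Esrrb, Tdgf1, Dppa4 and Utf1), Suz12 sites lay at Esrrb (Skellam p 6.611e-229) and Utf1 (Skellam p 4.524e-09), and none was listed at the other 5. The share of markers with a Suz12 site, 28.6%, was thus that of the background, 28.8% of protein-coding genes. The stronger Esrrb site was in the depleted list and Esrrb had a Pcl3 site of 3650 bp, and no marker had an H3K27me3-depleted site.

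The sequence just upstream of the gene start was covered by a Suz12 site in all 9 members. It is shown for 4 of them, in 3 clusters, as examples that differ in CpG content. The 200 bases before each start are given 5′ to 3′ on the gene's strand in mm9, and capitals mark CpG dinucleotides. Irx1 and Six2 held 20 and 21 CpG in these bases, Irx5 held 16 and Irx3 held 10.
Irx1 upstream (chr13:72101172-72101371, minus strand): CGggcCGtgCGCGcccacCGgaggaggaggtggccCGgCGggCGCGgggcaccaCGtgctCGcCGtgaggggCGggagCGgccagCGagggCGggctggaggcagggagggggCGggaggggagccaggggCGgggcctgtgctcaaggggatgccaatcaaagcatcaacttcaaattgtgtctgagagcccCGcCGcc
Irx3 upstream (chr8:94325554-94325753, minus strand): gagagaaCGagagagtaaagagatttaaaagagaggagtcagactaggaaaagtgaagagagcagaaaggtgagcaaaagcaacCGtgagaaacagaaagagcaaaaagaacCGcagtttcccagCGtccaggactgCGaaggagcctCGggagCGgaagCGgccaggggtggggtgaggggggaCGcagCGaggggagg
Irx5 upstream (chr8:94881495-94881694, plus strand): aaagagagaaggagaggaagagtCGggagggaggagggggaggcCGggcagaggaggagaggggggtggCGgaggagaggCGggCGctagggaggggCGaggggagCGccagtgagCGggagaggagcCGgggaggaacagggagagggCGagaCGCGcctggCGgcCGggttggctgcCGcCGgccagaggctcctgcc
Six2 upstream (chr17:86087595-86087794, minus strand): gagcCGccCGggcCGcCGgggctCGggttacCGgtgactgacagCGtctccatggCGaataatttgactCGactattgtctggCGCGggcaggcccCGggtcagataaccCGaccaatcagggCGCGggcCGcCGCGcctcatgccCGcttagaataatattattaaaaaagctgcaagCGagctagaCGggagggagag

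A further 3 stretches of 200 bases, read on the plus strand of mm9, show sequence where the lists differed. The first lies in the Irx1 gene in the interval between its pair of Suz12 sites, where a Pcl3 site was listed and no Suz12 site. It is intronic and held 1 CpG. The second is the centre of the H3K27me3-depleted site beyond the 3′ end of Irx1 and held 7 CpG. The third is the centre of a Suz12 site upstream of Six3 that was not in the depleted list, and it held 5 CpG.
Irx1 between the sites (chr13:72098526-72098725, plus strand): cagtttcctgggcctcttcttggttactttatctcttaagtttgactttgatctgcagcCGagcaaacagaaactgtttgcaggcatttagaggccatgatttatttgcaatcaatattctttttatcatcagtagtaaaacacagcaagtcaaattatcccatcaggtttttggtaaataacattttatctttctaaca
Irx1 H3K27me3-depleted centre (chr13:72094451-72094650, plus strand): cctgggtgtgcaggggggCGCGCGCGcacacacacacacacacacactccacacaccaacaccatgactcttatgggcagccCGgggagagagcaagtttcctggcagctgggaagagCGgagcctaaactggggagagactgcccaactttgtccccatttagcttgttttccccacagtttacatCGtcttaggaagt
Six3 centre of the site outside the depleted list (chr17:86009926-86010125, plus strand): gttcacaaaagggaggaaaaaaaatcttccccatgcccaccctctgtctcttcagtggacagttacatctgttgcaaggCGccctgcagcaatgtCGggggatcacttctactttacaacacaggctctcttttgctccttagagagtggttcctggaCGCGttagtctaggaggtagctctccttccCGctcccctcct

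All 9 genes had a Suz12 site, against 28.8% of protein-coding genes. All 9 also had a Suz12-depleted site, against 20.7% of protein-coding genes and 71.7% of those with a Suz12 site. A Pcl3 site lay at all 9, against 14.7% of protein-coding genes and 47.7% of those with a Suz12 site. Of the 9 genes, 8 had a Suz12 site in the strongest decile by p-value. Among the 875 protein-coding genes with such a site, 99.3% had a Pcl3 site and 100% a Suz12-depleted site, so the counts of 9 are the background share for sites of this strength. H3K27me3-depleted sites were listed at 5 of the 9, namely Irx1, Irx2, Irx4, Irx5 and Six3, against 3.13% of protein-coding genes, 10.5% of those with a Suz12 site and 28.5% of the 875 with a strongest-decile Suz12 site. No H3K27me3-depleted site was listed in the windows of Irx3, Irx6, Six2 and Six6. The count of 5 depended on the window and the p-value: it was 3 with a flank of 1 kb, 1 within 2 kb of the gene start and 0 at p-values of at most 1e-12. The shares over all genes were not recomputed under these settings. Over all 678 H3K27me3-depleted sites the upper quartile of the −log10 p-value was 10.6, so most of that list also fails 1e-12. The 9 genes lie in few clusters and their sites are not independent of each other, so the counts at the 9 genes were not tested.

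**Figure D1:**
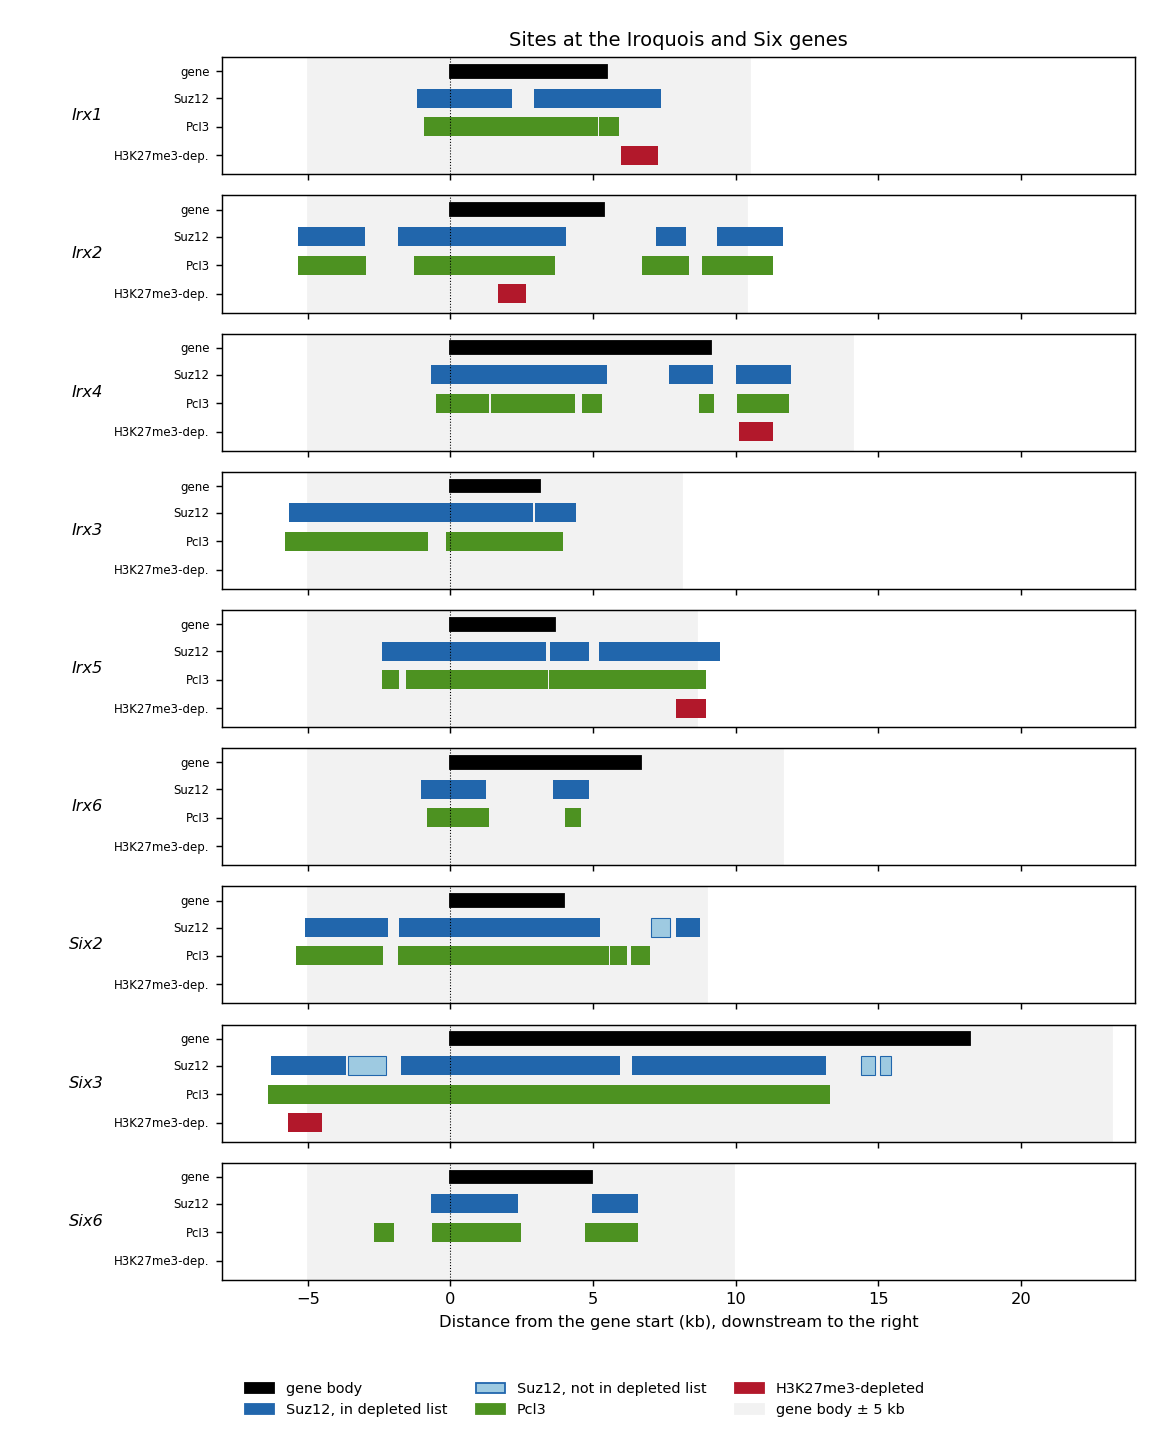
Sites of each list at the 9 genes, by distance from the gene start in kb, with transcription running to the right. Black bars are gene bodies, grey shading the gene body ± 5 kb, dark blue bars the 24 Suz12 sites in the depleted list, light blue bars the 4 outside it, green bars Pcl3 sites and red bars the 5 H3K27me3-depleted sites. A blue and a green bar cross the dotted line at the start of every gene, and no red bar does.

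A Suz12 site and a Pcl3 site covered the annotated start of each of the 9 genes, against 18.2% of protein-coding genes for Suz12 and 7.7% for Pcl3. Among the 875 genes with a Suz12 site in the strongest decile, these shares were 85.4% and 72.6%. Each of the 9 Suz12 sites was in the depleted list, as were 99.9% to 100% of all sites in the deciles of strength they belong to. The annotation gives the 9 genes 21 transcripts. Suz12 sites covered 21 of the transcript starts and Pcl3 sites 20, the exception being the most downstream Irx2 transcript, which starts 3800 bp into the gene. H3K27me3-depleted sites covered no gene start, against 0.599% of protein-coding genes and 4.23% of the 875, and 1 of the 21 transcript starts, that of an Irx2 transcript beginning 1800 bp into the gene.

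The 28 Suz12 sites of the members were wider and had smaller p-values than most Suz12 sites. Their median width was 2325 bp (range 400 to 8550 bp), against 1100 bp over all 8876 sites. Their median −log10 p-value was 155, against 26.2 over all sites. Of the 28, 12 were in the strongest decile by p-value, and 8 had a p-value written as 0 (28.6%, against 4.90% of all sites). At least 5 kb in width were 7 sites, or 25%, against 2.07% of all sites.

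The sites over the gene starts were wide and strong. The 9 had a median width of 5900 bp (2300 to 8550 bp) and 6 of them a p-value written as 0. The other 19 sites in the windows had a median width of 1550 bp (400 to 6800 bp), a median −log10 p-value of 66.9, and 2 of them a p-value of 0. The weakest site over a start was that of Irx6 (Skellam p 1.042e-162), which was still far below the median p-value of all Suz12 sites.

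**Figure D2:**
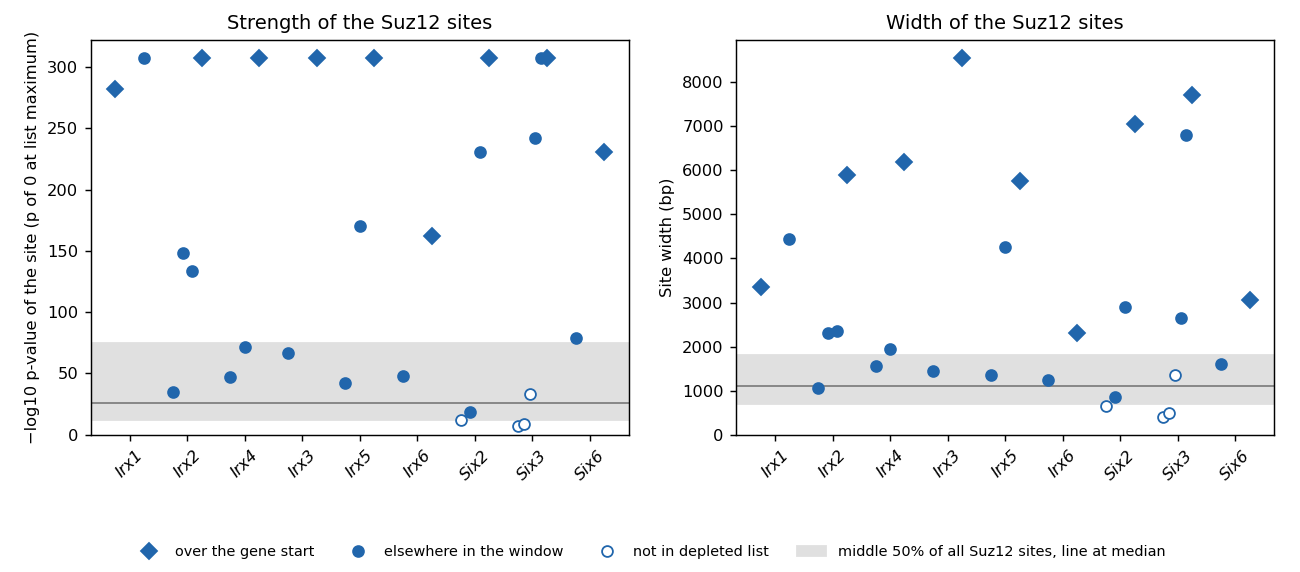
Strength (left, −log10 p-value) and width (right, bp) of each of the 28 Suz12 sites by gene, with diamonds for sites over the gene start and circles for other sites, and open symbols for the 4 sites outside the depleted list. The grey band is the middle 50% of all 8876 Suz12 sites and the line their median (26.2 and 1100 bp); the diamonds all lie above the band in both panels, and the open circles all lie at Six2 and Six3.

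Of the 28 Suz12 sites, 24 were in the depleted list, or 85.7% (95% Wilson interval over sites 68.5% to 94.3%), against 64.5% of all Suz12 sites. The share in the depleted list rose with the strength of a site over the whole list, from 2.48% in the weakest decile to 100% in the strongest. All 22 member sites in the 4 strongest deciles were in the depleted list, where 97.4% to 100% of all sites were. The members' share in those deciles is therefore that of the background. Sites of the 6 Irx genes were in the depleted list in 16 of 16 cases (80.6% to 100%) and sites of Six2, Six3 and Six6 in 8 of 12 (39.1% to 86.2%). The difference between the families was not tested, and 4 of those 12 sites, but none of the 16 Irx sites, were in the 5 weakest deciles.

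The 4 Suz12 sites outside the depleted list lay at Six2 and Six3. The Six2 site is 650 bp wide (chr17:86079901-86080550, Skellam p 3.830e-13), lies 7044 bp beyond the gene start on the 3′ side, and shares no base with a Pcl3 site. It is in the third decile from the weakest, where 28.4% of all sites were in the depleted list. A pair of narrow sites in the last exon region of Six3, of 500 bp (chr17:86027351-86027850, Skellam p 3.545e-09) and 400 bp (chr17:86028001-86028400, Skellam p 8.264e-08), covered 3′ UTR bases only and were in the weakest decile. The remaining site, upstream of Six3, differed from these in strength. It is 1350 bp wide (chr17:86009351-86010700, Skellam p 8.361e-34), is wholly inside a Pcl3 site, and is in the sixth decile, where 89.0% of all sites were in the depleted list. Its neighbour on the upstream side, 50 bp away, was in the depleted list and had a Skellam p of 7.725e-243. This site held 1.48 CpG per 100 bp, and the neighbour 4.15.

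Pcl3 sites overlapped most of the Suz12 bases at the members. Of the 28 Suz12 sites, 24 shared bases with a Pcl3 site, again 85.7%, against 44.3% of all Suz12 sites. All 12 sites in the strongest decile did so, where 99.7% of all sites did, and 4 of 4 in the decile next to it, where 94.8% did. In the eighth, seventh and sixth deciles counted from the weakest, 3 of 3, 3 of 3 and 2 of 2 member sites did, where 76.0%, 55.6% and 38.1% of all sites did. None of the 4 member sites in the 4 weakest deciles did, where 10.2% to 16.8% of all sites did. In bases, Pcl3 sites covered 88.9% of the 85051 bp of Suz12 sites inside the windows, against 48.8% over all Suz12 sites. Of the 26 Pcl3 sites, 23 shared bases with a Suz12 site, or 88.5%, against 76.9% of all Pcl3 sites. The Pcl3 sites were themselves wide, with a median of 2300 bp against 850 bp over all Pcl3 sites, and a median −log10 p-value of 58.6 against 16.3.

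No overlapping site of the other protein was listed at 4 Suz12 sites and 3 Pcl3 sites. The Suz12 sites without Pcl3 were both 3′ sites of Six2 and the 2 narrow 3′ sites of Six3. Of these, 1 was in the depleted list, the 850 bp site of Six2 (chr17:86078851-86079700, Skellam p 4.850e-19), in a decile where 48.6% of all sites were. The Pcl3 sites without Suz12 were a pair beyond the 3′ end of Six2, of 600 bp (Skellam p 2.039e-10) and 650 bp (Skellam p 2.282e-13), and a 700 bp site upstream of Six6 (Skellam p 4.577e-13). They held 1.33, 1.08 and 2.57 CpG per 100 bp, below the median of 4.22 over the 26 Pcl3 sites.

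**Figure D3:**
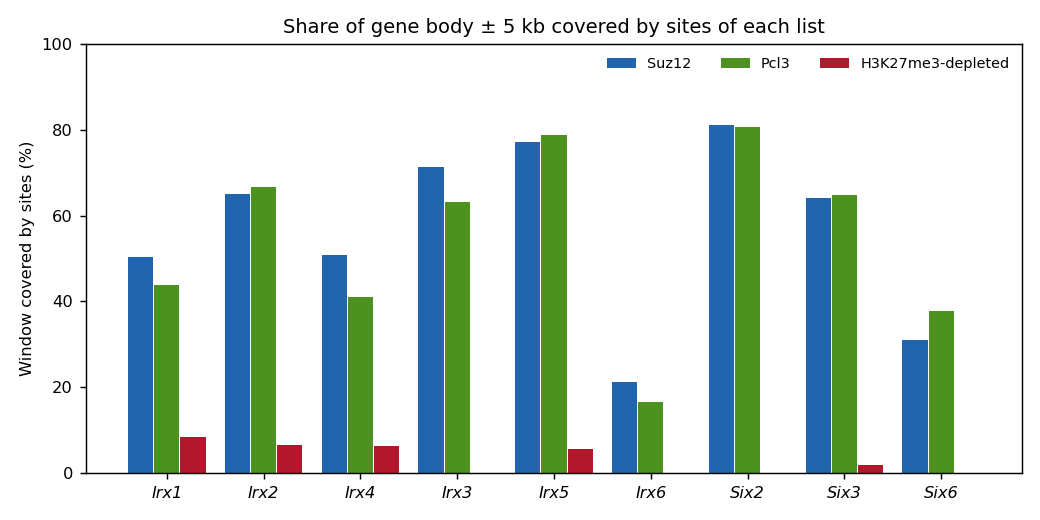
Percent of each window (gene body ± 5 kb) covered by sites of each list. Suz12 (blue) covered from 21.3% at Irx6 to 81.1% at Six2, Pcl3 (green) from 16.5% at Irx6 to 80.7% at Six2, and H3K27me3-depleted sites (red) at most 8.39%, at Irx1.

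The IrxA cluster on chromosome 13 holds Irx1, Irx2 and Irx4. Irx1 and Irx2 encode factors of early neural, limb and lung patterning, and Irx4 encodes a regulator of ventricular genes in the heart. The cluster with its flanks spans 1321389 bp, of which the windows make up 3.79%. All 9 Suz12 sites, 11 Pcl3 sites and 3 H3K27me3-depleted sites of the span lay inside those windows.

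Irx1 (chr13:72095680-72101171, minus strand) had a 3350 bp Suz12 site over its start (Skellam p 1.093e-282) and a stronger 4450 bp site over its 3′ part and 3′ flank (p written as 0). The intronic interval of 750 bp that separates them was wholly covered by a 6100 bp Pcl3 site (Skellam p 4.599e-274) and held 0.933 CpG per 100 bp. Suz12 sites covered all of the coding sequence and both UTRs of Irx1. A second Pcl3 site of 700 bp (Skellam p 3.674e-11) followed at the 3′ end.

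Irx2 (chr13:72766245-72771644, plus strand) had 4 Suz12 sites. The 5900 bp site over the start had a p-value written as 0, and a 2350 bp site lay upstream (Skellam p 3.257e-134). The other 2, of 1050 bp (Skellam p 1.742e-35) and 2300 bp (Skellam p 9.281e-149), lay beyond the 3′ end. Each had its own Pcl3 site, with p-values from 5.993e-175 over the start to 4.303e-31 on the 3′ side. Suz12 covered all coding bases of Irx2 but only 2.71% of its 3′ UTR.

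Irx4 (chr13:73397945-73407068, plus strand) had a 6200 bp Suz12 site from the start into the introns (p written as 0), a 1550 bp site over its 3′ exons (Skellam p 1.505e-47) and a 1950 bp site in the 3′ flank (Skellam p 2.741e-72). Its Pcl3 signal was split into 5 sites, none wider than 2950 bp, with a smallest p-value of 1.702e-87. Pcl3 covered 16.3% of the coding bases and Suz12 71.4%, the widest separation of the proteins over coding sequence among the 9 genes.

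The IrxB cluster on chromosome 8 holds Irx3, a factor that sets progenitor domains of the neural tube, Irx5, which acts in cardiac repolarization and in retinal bipolar cells, and Irx6, also expressed in bipolar cells. It spans 892428 bp. Of its 8 Suz12 sites 7 lay in the windows. The other, of 1950 bp (chr8:94983801-94985750, Skellam p 3.084e-125), was centred 103081 bp from the Irx5 start, was in the depleted list and overlapped a Pcl3 site (Skellam p 4.639e-53).

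Irx3 (chr8:94322428-94325553, minus strand) had the widest Suz12 site of the 9 genes, 8550 bp, ranked 39 by width among all 8876. It ran from 5647 bp upstream of the start to 2902 bp downstream, covered the whole 5′ flank of the window, and was followed after 50 bp by a site of 1450 bp (Skellam p 1.145e-67). It is shared with the non-coding gene D230002A01Rik, which runs upstream from within Irx3 on the other strand, and the lists do not assign the binding to either gene. Pcl3 was listed in 2 sites, of 4100 bp over the start (p written as 0) and 5000 bp upstream (Skellam p 4.394e-255).

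Irx5 (chr8:94881695-94885351, plus strand) had 3 Suz12 sites, of 5750, 1350 and 4250 bp, that together covered 77.3% of the window. Their p-values were 0 as written, 6.008e-43 and 9.649e-171. The first is shared with the protein-coding gene 4933436C20Rik, whose start lies 1675 bp away on the other strand. The 2 wider of its 3 Pcl3 sites were of 4950 bp (p written as 0) and 5500 bp (Skellam p 4.544e-157), and Pcl3 covered 97.6% of the Suz12 bases.

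Irx6 (chr8:95198188-95204855, plus strand) had the smallest share of its window under Suz12, 21.3%. Its sites were 2300 bp over the start (Skellam p 1.042e-162) and 1250 bp inside the gene (Skellam p 1.296e-48), and no Suz12 site covered its 3′ UTR or 3′ flank. Its Pcl3 sites of 2200 bp (Skellam p 4.417e-54) and 550 bp (Skellam p 2.286e-10) were the weakest pair among the 9 genes, judged by the smallest p-value at each.

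Six2, which maintains nephron progenitors, and Six3, a regulator of forebrain and eye formation, lie on chromosome 17 in opposite orientation within 84647 bp, flanks included. The span held 12 Suz12 sites, of which 2 lay outside both windows. The first of these (Skellam p 8.293e-30) was in the depleted list and had a Pcl3 site, and the second (Skellam p 2.703e-11) was not in the depleted list and had none.

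Six2 (chr17:86083608-86087594, minus strand) was covered from end to end by a 7050 bp Suz12 site (p written as 0) and by a 7400 bp Pcl3 site (p written as 0). A second Suz12 site of 2900 bp (Skellam p 1.574e-231) with a Pcl3 site of 3050 bp (Skellam p 5.586e-168) lay upstream. With the weak 3′ sites given above, Suz12 covered 81.1% of its window, the most of the 9 genes.

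Six3 (chr17:86012948-86031153, plus strand) had 6 Suz12 sites, the most of the 9. The site over the gene start was 7700 bp wide and a second site 6353 bp downstream was 6800 bp wide, both with a p-value written as 0. The second covered the starts of the 3 other Six3 transcripts, 7235 and 7423 bp downstream of the first. A single Pcl3 site of 19700 bp (chr17:86006551-86026250, p written as 0) ran across 4 of the 6 Suz12 sites and was the fourth widest of 5242 Pcl3 sites. The Suz12 sites inside it were separated by intervals of 50, 500 and 400 bp. The non-coding gene Six3os1, on the other strand, shares the sites upstream of Six3 and that over its start.

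Six6, which acts in the retina and the hypothalamus, lies on chromosome 12 (chr12:74040932-74045886, plus strand). It had 2 Suz12 sites, of 3050 bp over the start (Skellam p 2.871e-231) and 1600 bp at the 3′ end (Skellam p 1.559e-79). Their Pcl3 sites of 3100 bp (Skellam p 3.191e-102) and 1850 bp (Skellam p 4.624e-45) covered 98.9% of the Suz12 bases, the largest share of the 9 genes. The site over the start also overlaps 4930447C04Rik on the other strand.

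The 5 H3K27me3-depleted sites were narrow and lay away from the gene starts. Each was inside a Suz12 site of the depleted list. At Irx1, the site (chr13:72093901-72095200, 1300 bp, Skellam p 3.093e-09) lay in the 3′ flank, with its centre 6620 bp downstream of the start, and shared no base with a Pcl3 site. At Irx2 (chr13:72767901-72768900, 1000 bp, Skellam p 3.294e-08) it lay over coding exon and intron, 2156 bp downstream. At Irx4 (chr13:73408051-73409250, 1200 bp, Skellam p 2.903e-07) and Irx5 (chr8:94889601-94890650, 1050 bp, Skellam p 1.514e-08) it lay in the 3′ flank, 10706 and 8431 bp downstream. At Six3 (chr17:86007251-86008450, 1200 bp, Skellam p 2.937e-08) its centre was 5097 bp upstream. The sites at Irx2, Irx4, Irx5 and Six3 were wholly inside Pcl3 sites.

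These 5 sites stood in the middle and the weaker part of their list. Their ranks by p-value ranged from 337 to 674 of 678, their median −log10 p-value was 7.53 against 8.49 over the list, and the p-value at Irx4 was above the 1e-07 cutoff used for single windows. Their median width was 1200 bp against 1350 bp. The Suz12 sites around them had p-values of 0 as written at Irx1 and Irx2, 7.725e-243 at Six3, 9.649e-171 at Irx5 and 2.741e-72 at Irx4.

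Over all Suz12 sites, 6.89% shared bases with an H3K27me3-depleted site, and 5 of the members' 28 did (17.9%, 95% Wilson interval 7.88% to 35.6%). Among Suz12 sites of at least 5 kb, 1 of the members' 7 did (14.3%), against 27.2% of all 184 sites of that width. In the strongest decile the shares were 3 of 12 for the members and 19.4% for all sites. Of the 875 protein-coding genes with a Suz12 site in that decile, 28.5% had an H3K27me3-depleted site. Such a Suz12 site lay at 8 members (at all but Irx6), and 5 of the 8 had an H3K27me3-depleted site.

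The Suz12 sites followed the CpG-rich parts of the windows. CpG density inside Suz12 sites ranged from 3.65 per 100 bp at Six3 to 5.75 at Irx5, and outside them, in the same windows, from 0.848 at Irx3 to 1.55 at Irx5. The ranges did not overlap. The share of the CpG of a window that lay in Suz12 sites was highest at Irx3, 94.0%, and lowest at Irx6, 44.1%.

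**Figure D4:**
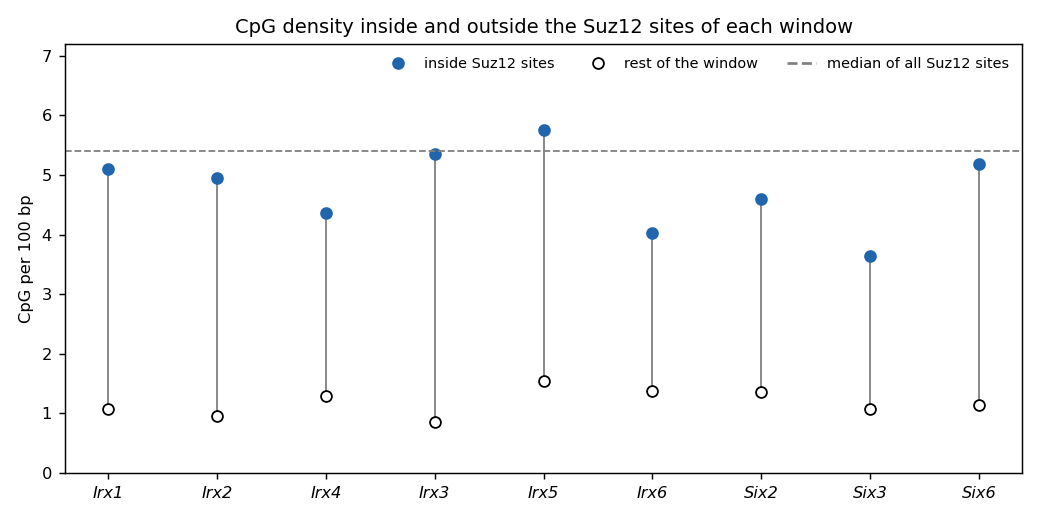
CpG per 100 bp inside the Suz12 sites (filled) and in the rest of each window (open), with the median of all 8876 Suz12 sites (5.41) as a dashed line. Every filled point lies above every open point, and only that of Irx5 lies above the dashed line.

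Compared with all Suz12 sites, the members' sites were not rich in CpG. Their median was 4.11 CpG per 100 bp against 5.41, and in the 500 bp at the centre 4.00 against 7.00. The members' 7 sites of at least 5 kb had a median of 5.15 over the whole site, above that of their 28 sites, and the 184 sites of that width over the whole list 4.78. In the 500 bp at the centre the medians at this width were close, 4.00 for the members' 7 and 4.4 for the 184. The hexamer GCGCGC, which reads the same on both strands, was present in the central 500 bp of 6 of the 28 sites (21.4%), against 37.5% of all Suz12 sites. Among sites of at least 5 kb it was present in 1 of the members' 7 (14.3%) and in 17.4% of the 184. The members' 4 sites outside the depleted list, all at the linked genes Six2 and Six3, had a median of 1.74 CpG per 100 bp and their 24 sites in it 4.19. Over the whole list these whole-site medians were close, 5.27 for the 3154 sites outside the depleted list and 5.45 for the 5722 in it. In the 500 bp at the centre they were further apart, 5.80 outside the depleted list and 7.60 in it. GCGCGC was present there in 29.3% of the sites outside the depleted list and 42.0% of those in it.

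By annotation, Suz12 sites covered 100% of the 5′ UTR bases of the 9 genes, 89.7% of the coding bases, 79.5% of the intronic bases and 45.0% of the 3′ UTR bases. They covered 53.1% of the 5′ flanks and 36.2% of the 3′ flanks. Pcl3 followed the same order over these parts, with 97.7% of 5′ UTR, 81.0% of coding, 79.5% of intronic and 41.6% of 3′ UTR bases. The order differed for the 518 non-coding exon bases, which lie at Irx2. Suz12 covered 100% of them and Pcl3 74.3%, less than its share of intronic bases. The 5 H3K27me3-depleted sites covered 7.22% of the 3′ flanks, 5.26% of coding bases, 3.28% of non-coding exon bases, 1.28% of intronic bases, 1.12% of the 5′ flanks and no base of either UTR. All 602 coding bases among these came from the Irx2 site.

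Between the sites of a window there were 19 intervals without Suz12, from 50 to 3150 bp long. Pcl3 sites covered 6 of them wholly and 3 not at all. Reads were 30 nt long and were kept only when they aligned to a single place. The share of 30-base words that occur once in mm9, by exact match, was therefore counted. It was 98.7% inside the Suz12 sites and 98.5% in the intervals. In the rest of the windows it was 94.2%, and lowest at Six3 with 78.7%. The part of repeated sequence in the absence of sites there was not tested. The authors' alignment allowed mismatches, so these shares can overstate how much of the windows reads could be placed in.

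Most of the nearest protein-coding neighbours described here lacked Suz12 sites, as did most protein-coding genes, of which 28.8% had one. No Suz12 site was listed in the windows of 8030423J24Rik, Rpl9-ps4 and Ndufs6 around IrxA, Fto and Gm3272 around IrxB, Srbd1 beside Six2 and Ppm1a beside Six6. Fto lies 130089 bp from Irx3. On the other side of Six3, 1700106N22Rik had 1 Suz12 site of 750 bp (Skellam p 3.330e-15), in the depleted list. The neighbour 4933436C20Rik shares the Irx5 site.

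The other genes of the families and of the network of Eya and Dach proteins that act with sine oculis factors were on the lists in part. Of 9 such genes, 6 had a Suz12 site, 5 a Suz12-depleted site, 4 a Pcl3 site and none an H3K27me3-depleted site. Six4 (chr12:74201246-74214401), on the same chromosome as Six6 but not among the 9 genes, had 1 Suz12 site of 800 bp (Skellam p 1.364e-16). That site was not in the depleted list, and Six4 had no Pcl3 site. Six5 had 1 Suz12-depleted site (Skellam p 6.256e-69) without Pcl3. Mkx, a tendon factor related to the Irx proteins, had a 4650 bp site with a p-value written as 0. Eya4 (Skellam p 8.405e-240), Dach1 (Skellam p 7.458e-204) and Eya1 (Skellam p 8.657e-23) each had 1 Suz12-depleted site with Pcl3. None was listed at Eya2, Eya3 and Dach2.

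**Figure D5:**
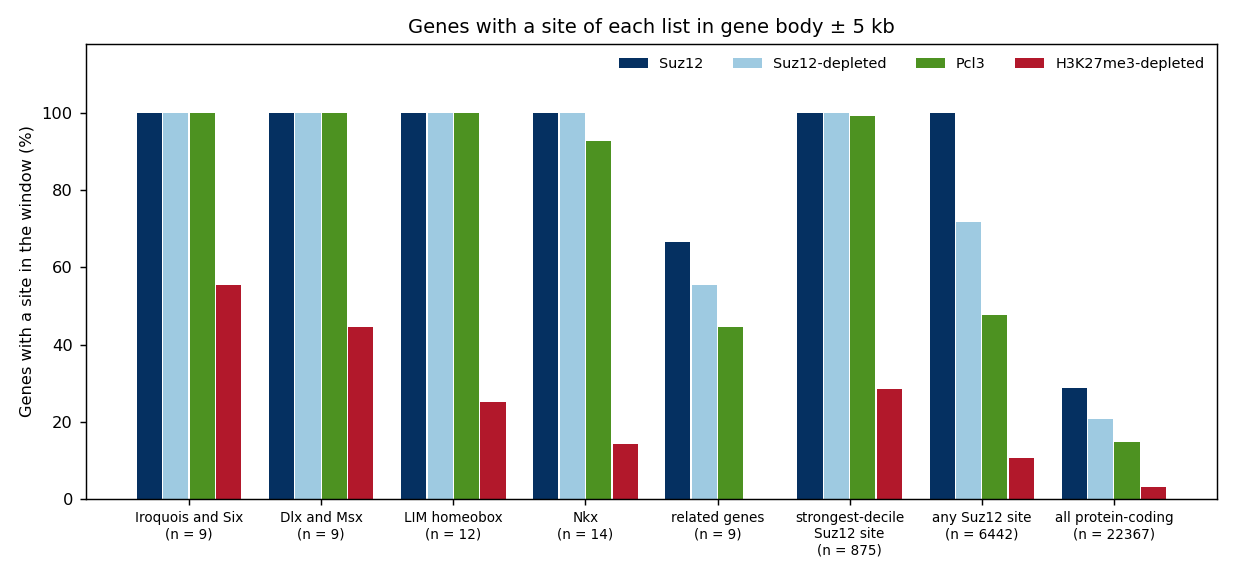
Percent of genes with a site of each list in the gene body ± 5 kb, for the 9 Iroquois and sine oculis genes, for 3 other homeobox families, for 9 related genes, and for protein-coding genes by Suz12 site. Suz12 (dark blue) was at 100% in all 4 homeobox groups, while H3K27me3-depleted sites (red) were at 55.6% of the Iroquois and sine oculis genes, 44.4%, 25% and 14.3% of the 3 other families, and 0% of the related genes.

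Other homeobox families had similar counts for Suz12. All 9 Dlx and Msx genes, all 12 LIM homeobox genes and all 14 Nkx genes had a Suz12 site and a Suz12-depleted site, and 9, 12 and 13 of them a Pcl3 site. H3K27me3-depleted sites were at 4 of 9, 3 of 12 and 2 of 14, against 5 of 9 for the Iroquois and sine oculis genes. These differences were not tested, and the other families were not recomputed under the settings that changed the count of 5. The median Suz12 coverage was 9700 bp per gene for the Iroquois and sine oculis genes, 9196 bp for Dlx and Msx, 8550 bp for LIM, 6374 bp for Nkx, 1400 bp over all protein-coding genes with a Suz12 site and 4750 bp over those with a site in the strongest decile.

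The genes outside these clusters whose coverage was most like the members' median, by Euclidean distance of log10(bp + 1) over the 4 lists, were 4930412O13Rik (0.18), Prdm12 (0.31), Tlx3 (0.31), Foxf1a (0.32) and Meis1 (0.34). The members themselves split on this measure. Irx5, Irx2, Irx4, Irx1 and Six3 were at distances from 0.21 to 0.49, and Irx3, Six2, Six6 and Irx6 from 2.70 to 2.81, because the latter have no H3K27me3-depleted base and the median over the 9 genes is 503 bp.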

How the data were processed

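The samples were mouse ESC ChIP-seq libraries, 6 of ChIP and 4 of input DNA. Reads of 30 nt were mapped by the authors to mm9 using bowtie (version not given in the sources used here), and reads with more than 1 alignment were discarded. Each pair of libraries was scaled to the same background, windows of 400 bp were called at a Skellam p-value of 1e-07, and overlapping calls were merged and deposited with 1 recomputed p-value each. How the 2 Pcl3-TAP libraries were combined is not given in the sources used here. The p-value is the only measurement in the 4 deposited lists used here. Unique alignment leaves out repeated sequence, equal background is assumed for both libraries of a pair, and the lists give no reads per site, so the depth and the precision of a site are unknown.

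Sites were assigned to genes by shared bases with the gene body ± 5 kb in GENCODE vM1 (mm9, coordinates 1-based). Widths, ranks, deciles of the Suz12 p-value, shared bases, CpG per 100 bp, GCGCGC in the central 500 bp and the uniqueness of 30-base words were computed. Shares are over sites, with 95% Wilson intervals that cover counting over sites only. No test over samples could be made, and lists are described beside all genes or all sites. The members and lists were chosen with earlier results of these data known. Named genes were all members, their family and network genes, the nearest non-overlapping protein-coding gene on each side, and the 5 genes with the most similar coverage; the Dlx and Msx, LIM and Nkx families were given by counts. A gene of these lists is not reported here. The stem cell markers were checked for sites of each list. Alternatives were flanks of 1 and 10 kb, 2 kb around the gene start, protein-coding transcripts only, site centres in the window, p-values of at most 1e-12, joined neighbouring sites, Pcl3 by centres within 2 kb and CpG in the central 500 bp. The overlap functions, tested on simulated data, differed from a search of all pairs in 0 of 600 windows. The tools were samtools 1.23.1 and Python 3.11.15 with matplotlib 3.10.9, pandas 2.3.3, numpy 2.4.6, pysam 0.24.0 and scipy 1.17.1.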

Additional observations from a re-analysis of the deposited data

How the results depend on the processing

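Of 79 recomputed values, 67 stayed the same within their interval, or within 1.5 times for counts, and 12 moved. These limits were loose. The interval of the median −log10 p-value ran from 47.9 to 282, and 19 Suz12 sites with a flank of 1 kb counted as the same as 28. Taking protein-coding transcripts only changed no value, so the tally is no measure of robustness. The number of genes with an H3K27me3-depleted site, 5 with a 5 kb flank, was 3 with a flank of 1 kb, 1 within 2 kb of the gene start and 0 at p-values of at most 1e-12 in every list. Most H3K27me3-depleted sites of the whole list also fail 1e-12, and the shares over all genes were not recomputed. Within 2 kb of the gene start, 9 Suz12 and 13 Pcl3 sites were left, 100% of the Suz12 sites were in the depleted list and 100% shared bases with Pcl3, and their medians were 307.197 for −log10 p-value, 5900 bp for width and 5.15 CpG per 100 bp. Joining sites under 1 kb apart gave 17 Suz12 sites and 15 Pcl3 sites. No paired analysis was possible because the lists give no value per library, and for the same reason no library could be left out. The lists give no depth, so a site missing from a list is not shown to lack binding or loss.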
